A study of Mus musculus with 12 samples.

Results

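The genes of MHC class II antigen presentation were followed as 7 members, H2-Aa, H2-Ab1, H2-Eb1, H2-DMa, H2-DMb1, Cd74 and Ciita. They were taken by gene name from the 54532 genes counted in each liver library, and all 7 were found under a single identifier each. All 7 passed edgeR's filter on low counts in every comparison, so no member was set aside.

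MHC class II molecules are pairs of an alpha and a beta chain that carry peptides from swallowed proteins to the cell surface and show them to CD4+ T cells. The invariant chain, encoded by Cd74, escorts newly made chains to the endosome, where cathepsins trim it and the editor H2-DM exchanges its remnant for a peptide. The coactivator CIITA, which does not bind DNA itself, switches these genes on together, and interferon gamma is its classic inducer. In the liver, dendritic cells, B cells, Kupffer cells and recruited macrophages are the usual carriers of class II, whereas hepatocytes make little of it.

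Libraries came from the livers of male mice in which both copies of Pparg carried flox sites. At 8 weeks of age every mouse was injected with an AAV8 vector under the TBG promoter, which drives expression in hepatocytes. The vector carried Cre recombinase in the PPARγ-KO groups and a green fluorescent protein in the wild-type (WT) groups, so the floxed alleles, the virus and the diet were common to all groups. All mice then received the FFD, a fast-food diet rich in fat, cholesterol and sucrose, with fructose and glucose in the drinking water, for 2 or 5 months. Each of the 4 groups had 3 libraries, 12 in all. No chow-fed library was analysed here, so the values at 2 months are not a baseline. Because TBG-Cre acts in hepatocytes and the members are mainly made by other cells, a difference between the groups is one of the whole tissue.

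Counts over the whole of the targeted gene, Pparg, were higher under the PPARγ-KO label. WT libraries held 38.8, 41.4 and 37.6 normalized CPM of Pparg at 2 months and those labelled PPARγ-KO 50.4, 66.5 and 52.0. At 5 months the values were 36.9, 41.4 and 37.1 in WT libraries, while those labelled PPARγ-KO had 86.5, 92.9 and 75.0. The log2 fold change was 0.52 ± 0.107 (SE, adjusted p = 0.0309) at 2 months and 1.15 ± 0.0847 (adjusted p = 2.57e-06) at 5 months. A count over the whole gene does not single out the floxed exons, so it does not measure the deletion, and the groups are therefore named by their labels throughout. Normalized CPM are counts relative to the library total after TMM scaling. Totals ran from 16367775 to 27452284 counts, at which a gene with 0 counts could have a level of up to 0.112 to 0.189 CPM (3 counts, counting error only). The hepatocyte list, which includes Alb, summed to at least 59900 CPM in every library. At 2 months WT replicate 1 lay furthest from the other WT libraries over all genes.

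Per kilobase of exon, which makes levels comparable between genes, Cd74 was the most abundant member in all 4 groups and Ciita the least. In WT libraries at 5 months the mean level was 313 ± 74.6 CPM per kb for Cd74 (SD, n = 3). The chains followed with 178 ± 53.4 for H2-Eb1, 141 ± 34.5 for H2-Ab1 and 129 ± 44.2 for H2-Aa. The ranges of the 3 chains overlapped between libraries, but within each of the 3 libraries the order was the same, with H2-Eb1 at 1.14 to 1.31 times and H2-Aa at 0.762 to 0.957 times the level of H2-Ab1. The lowest Cd74 value of 227 CPM per kb lay above the highest H2-Eb1 value of 212. The editor subunits stood an order of magnitude below the chains, with 15.6 ± 4.11 CPM per kb for H2-DMb1 and 11.7 ± 2.94 for H2-DMa. Their ranges overlapped too, while H2-DMa was 0.739 to 0.762 times H2-DMb1 within each library. Ciita came last at 1.08 ± 0.34 CPM per kb. The same order from Cd74 to Ciita held for the group means of PPARγ-KO libraries at 5 months, where Cd74 had 159 ± 30.4 CPM per kb and Ciita 0.447 ± 0.153.

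**Figure D1:**
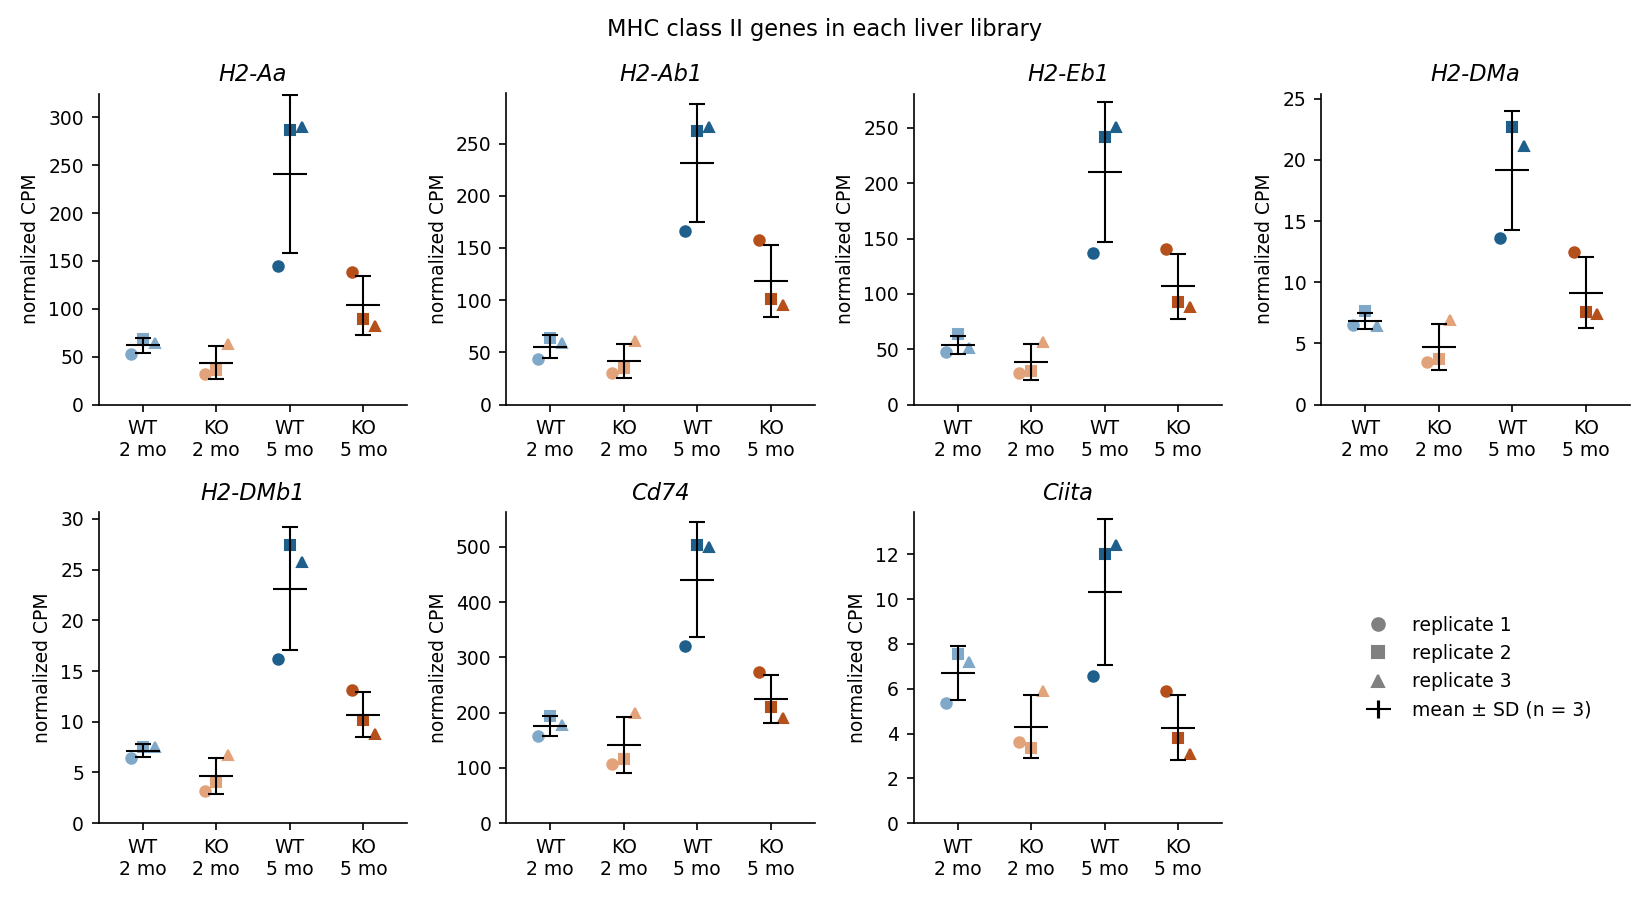
Normalized CPM (vertical axis, linear from 0) of the 7 class II genes in each of the 12 liver libraries, by genotype label and months of FFD (horizontal axis). Symbols give the replicate number and bars the mean ± SD of 3 libraries. WT libraries at 5 months stand highest for every gene in the mean, and replicate 3 of the PPARγ-KO group at 2 months lies at the level of the WT libraries, as with 63.7 CPM of H2-Aa against 52.9 to 68.7.

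The 3 chains lie within a stretch of chromosome 17 (mm10) that also holds both editor subunits. H2-Ab1 spans 34263209 to 34269418 on the plus strand, H2-Aa 34282744 to 34287827 on the minus strand and H2-Eb1 34305877 to 34316199 on the plus strand. H2-DMa spans 34135182 to 34139101 and H2-DMb1 34153072 to 34160230, both on the plus strand. No other annotated gene overlaps any of these 5. H2-DMb1 has a near-identical neighbor, H2-DMb2, so reads that match both could have been assigned to either, and the level of H2-DMb1 is uncertain to that extent.

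Class II genes are known to share a promoter module of an X box and a Y box, onto which CIITA is recruited, and the promoter windows are shown because these members moved together in the data. RefSeq windows (GRCm38.p6, the assembly of mm10) reaching from 250 bases before to 50 bases after the start site were available at the start of 3 members. Capitals mark the Y box core GATTGG and the X box letters CCNAGNNAC, searched on both strands. H2-Aa is shown for chr17:34287774-34288073 (minus strand), H2-Eb1 for chr17:34305617-34305916 (plus strand) and H2-DMb1 for chr17:34152941-34153240 (plus strand).
H2-Aa: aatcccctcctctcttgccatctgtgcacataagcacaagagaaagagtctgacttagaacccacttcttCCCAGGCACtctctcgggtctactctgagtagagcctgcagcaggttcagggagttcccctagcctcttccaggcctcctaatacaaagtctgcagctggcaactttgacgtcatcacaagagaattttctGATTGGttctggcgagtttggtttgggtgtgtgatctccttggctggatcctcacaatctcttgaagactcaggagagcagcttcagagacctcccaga
H2-Eb1: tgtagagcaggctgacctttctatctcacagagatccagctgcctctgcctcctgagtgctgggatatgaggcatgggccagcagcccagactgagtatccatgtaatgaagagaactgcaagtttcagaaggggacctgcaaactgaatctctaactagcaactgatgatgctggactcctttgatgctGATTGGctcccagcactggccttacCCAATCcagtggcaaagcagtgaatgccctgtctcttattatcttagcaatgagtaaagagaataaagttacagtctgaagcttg
H2-DMb1: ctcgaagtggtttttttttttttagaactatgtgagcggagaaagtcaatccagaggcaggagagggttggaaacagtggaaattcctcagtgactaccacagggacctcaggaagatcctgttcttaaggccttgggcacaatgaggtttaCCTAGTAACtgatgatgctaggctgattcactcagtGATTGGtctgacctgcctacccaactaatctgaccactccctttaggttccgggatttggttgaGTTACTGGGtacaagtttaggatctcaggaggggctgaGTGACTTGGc

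All 3 windows hold a Y box core on the strand of the gene, starting 49 bases upstream of the start site in H2-Aa, 60 in H2-Eb1 and 62 in H2-DMb1. H2-Eb1 has a further one on the other strand, 35 bases upstream. The X box letters match 98 bases upstream in H2-DMb1, ahead of its Y box core, and on the other strand 2 and 40 bases downstream of the start site. They match 180 bases upstream in H2-Aa and nowhere in the H2-Eb1 window. Only exact matches were searched, so a window without one may still hold an X box. Upstream of its Y box core the H2-Eb1 window reads actagcaac, which departs from the X box letters only in its opening base. The match in H2-Aa lies much farther from its Y box core than the upstream match in H2-DMb1 does, and whether it is the X box was not tested. No match of one motif overlapped a match of the other. Of the 32851 windows in the table, 16.1% hold a Y box core, 17.3% the X box letters and 2.9% both, so neither set of letters is rare, and a match is a description of the sequence only.

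After 2 months of FFD, all 7 members had a lower fitted level in libraries labelled PPARγ-KO than in WT libraries, and none passed the test. The log2 fold change ranged from -0.63 for Ciita to -0.32 for Cd74, with a median of -0.49, against a median of -0.0048 over the 14573 genes tested. Of all genes tested, 1.78% were called lower at an adjusted p under 0.05, and 0 of 7 members were. At an unadjusted p under 0.05, 2 members were lower, H2-DMb1 and Ciita, where 9.52% of all genes were. DESeq2 likewise called 0 members, and so did edgeR with the replicate number as a block, although the block raised the count over all genes from 519 to 817.

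Replicate 3 of the PPARγ-KO group decided this comparison. H2-Aa, the alpha chain of the I-A molecule, had 52.9, 68.7 and 63.9 CPM in WT libraries, while those labelled PPARγ-KO had 32.2, 35.9 and 63.7. Its partner H2-Ab1 had 43.5, 64.3 and 58.9 CPM in WT and 30.3, 35.0 and 60.7 in PPARγ-KO libraries. H2-Eb1, the beta chain of I-E, had 47.2, 63.4 and 51.4 CPM in WT and 28.2, 30.0 and 56.9 in PPARγ-KO libraries. In each chain, replicates 1 and 2 of the PPARγ-KO group lay below all WT libraries and replicate 3 lay among them, so the groups overlapped. The editor subunit H2-DMa showed the same arrangement, with 6.49, 7.62 and 6.44 CPM in WT and 3.52, 3.76 and 6.88 in PPARγ-KO libraries. H2-DMb1 had 6.38, 7.51 and 7.51 CPM in WT and 3.21, 4.05 and 6.70 in PPARγ-KO libraries. The invariant chain, Cd74, had 157, 194 and 177 CPM in WT libraries and 108, 116 and 199 in PPARγ-KO libraries, where replicate 3 was the highest of all 6. Ciita had 5.35, 7.56 and 7.20 CPM in WT and 3.62, 3.36 and 5.92 in PPARγ-KO libraries. Set beside the WT library of the same number, every PPARγ-KO library was lower for H2-Aa, H2-DMb1 and Ciita, whereas for the other 4 members replicate 3 was higher.

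The fitted differences at 2 months were accordingly loose. The log2 fold change was -0.60 ± 0.252 (SE, adjusted p = 0.233) for H2-DMb1 and -0.63 ± 0.242 (adjusted p = 0.20) for Ciita. For H2-Aa it was -0.49 ± 0.294 (adjusted p = 0.458) and for Cd74 -0.32 ± 0.258 (adjusted p = 0.579). Without PPARγ-KO replicate 3, 3 members passed the test, H2-Aa at -0.86 (adjusted p = 0.0161), H2-Eb1 at -0.89 (0.0196) and Cd74 at -0.65 (0.0254). Over all settings tried, the adjusted p of H2-Aa ran from 0.0161 to 0.739, that of H2-Eb1 from 0.0196 to 0.787 and that of Cd74 from 0.0254 to 0.839. That library was also the deepest of the 12, with 27452284 counts, and the part of depth in its values was not tested.

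After 5 months of FFD, the 7 members had fitted levels 48.5% to 58.0% lower in libraries labelled PPARγ-KO than in WT libraries, and H2-DMb1 and Ciita fell past the threshold. The log2 fold change was -1.09 ± 0.233 for H2-DMb1 (adjusted p = 0.0187) and -1.25 ± 0.305 for Ciita (adjusted p = 0.0258), which put the coactivator 58.0% and the editor subunit 53.2% below WT. The median over the 7 was -1.04, against -0.0058 over the 14138 genes tested. The 2 of 7 members called lower compare with 9.51% of all genes called lower. With DESeq2 all 7 were called, where 8.56% of all genes were called lower.

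The other 5 members had differences of like size with a wider spread. H2-DMa was at -1.04 ± 0.28 (SE, adjusted p = 0.0504) and Cd74 at -0.96 ± 0.238 (adjusted p = 0.0515), both just outside the threshold. The chains were at -1.21 ± 0.391 for H2-Aa (adjusted p = 0.123), -0.96 ± 0.304 for H2-Ab1 (0.112) and -0.96 ± 0.338 for H2-Eb1 (0.143). All 7 had an unadjusted p under 0.05, the highest being 0.0416 for H2-Eb1.

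Library by library, the gap between the groups was narrow on one side. H2-Aa had 145, 287 and 290 CPM in WT libraries, while those labelled PPARγ-KO had 139, 89.8 and 81.9. H2-Ab1 had 166, 262 and 266 CPM in WT and 158, 101 and 95.8 in PPARγ-KO libraries. H2-Eb1 had 137, 242 and 251 CPM in WT and 141, 92.6 and 87.8 in PPARγ-KO libraries, and was the member whose groups overlapped. In the chains, WT replicate 1 and PPARγ-KO replicate 1 thus lay next to each other, and the other 4 libraries lay far apart. H2-DMa had 13.6, 22.7 and 21.1 CPM in WT and 12.5, 7.59 and 7.38 in PPARγ-KO libraries. H2-DMb1 had 16.2, 27.4 and 25.8 CPM in WT and 13.1, 10.2 and 8.83 in PPARγ-KO libraries. Cd74 had 320, 503 and 500 CPM in WT and 273, 210 and 191 in PPARγ-KO libraries. Ciita had 6.58, 12.0 and 12.4 CPM in WT and 5.90, 3.79 and 3.09 in PPARγ-KO libraries. For 6 of 7 members every library labelled PPARγ-KO was below every WT library, which was true of 19.0% of all genes tested.

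The calls at 5 months rested on single libraries. Without WT replicate 3, PPARγ-KO replicate 2 or PPARγ-KO replicate 3, 0 members passed the test, and without WT replicate 2 only H2-DMb1 did. Without WT replicate 1 or without PPARγ-KO replicate 1, 5 members passed. WT replicates 2 and 3 were also unusually close to each other over all genes, and the labels do not say whether they came from separate livers. Leaving out a library kept all 7 below WT in each case, and over all settings the log2 fold change of Ciita ran from -1.56 to -1.08 and that of H2-DMb1 from -1.29 to -0.96, with adjusted p of up to 0.141 and 0.104.

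**Figure D2:**
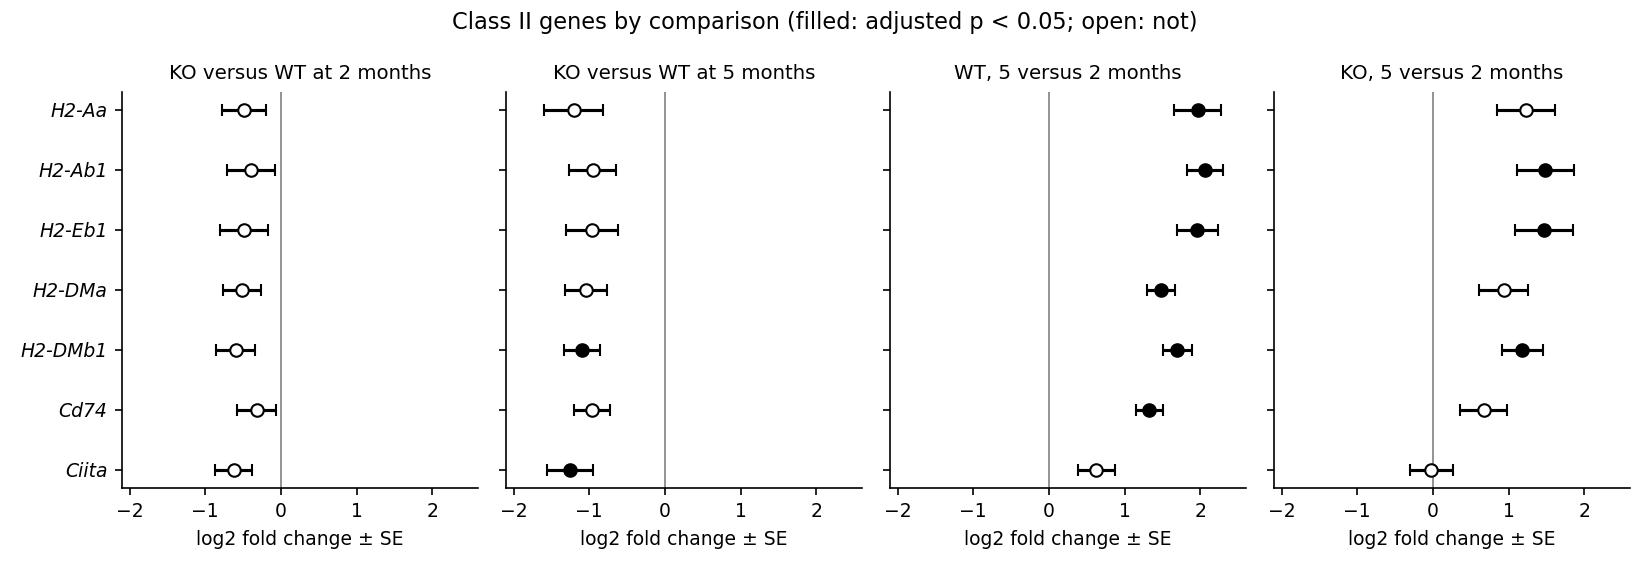
Log2 fold change of each class II gene (horizontal axis, point) with the standard error of the edgeR fit (bar) in the 4 comparisons. Filled points have an adjusted p under 0.05, and the vertical line marks no difference. All 7 lie below 0 in both comparisons of PPARγ-KO with WT, and Ciita lies at -0.02 between 5 and 2 months in libraries labelled PPARγ-KO, where H2-Ab1 lies at 1.49.

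Whether the difference between the genotypes grew from 2 to 5 months was asked in a fit of all 12 libraries. It was larger at 5 months for all 7 members in the fitted value, by -0.49 for H2-Eb1 to -0.73 for H2-Aa on the log2 scale, but 0 of 7 passed the test, where 0.912% of all genes were called in that direction. The adjusted p ran from 0.476 for Cd74 to 0.713 for H2-Eb1, 0 members had an unadjusted p under 0.05, and DESeq2 called 0. Standard errors of 0.377 to 0.51 mean that a change of this size could not be told from none with 3 libraries a group.

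In WT livers, class II genes were much higher at 5 than at 2 months of FFD, and the chains had the largest fitted differences of the members. The log2 fold change was 2.06 ± 0.235 for H2-Ab1 (SE, adjusted p = 0.000767), 1.96 ± 0.308 for H2-Aa (0.00464) and 1.96 ± 0.27 for H2-Eb1 (0.00235), equal to a 3.89- to 4.17-fold higher level. The editor subunits rose 3.24-fold for H2-DMb1 (1.70 ± 0.197, adjusted p = 0.000148) and 2.79-fold for H2-DMa (1.48 ± 0.189, adjusted p = 0.000183). Cd74 rose 2.51-fold (1.33 ± 0.181, adjusted p = 0.000736). Ciita had the smallest difference, 0.62 ± 0.244 (adjusted p = 0.0608), and its groups overlapped, since WT replicate 1 at 5 months had 6.58 CPM and WT replicate 2 at 2 months 7.56.

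These calls were made against a high background, since 23.8% of the 14491 genes tested were higher at 5 months in WT libraries. Of the 7 members 6 were called higher, and for the same 6 every library at 5 months lay above every library at 2 months, as it did for 28.8% of all genes. The tables of the 2- and 5-month libraries appear to have been saved in different years, and whether the libraries were prepared and sequenced together is not stated, so time on the diet, age and any batch cannot be told apart. The WT libraries at 5 months enter both this comparison and that with PPARγ-KO at 5 months.

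In libraries labelled PPARγ-KO, 3 of 7 members were called higher at 5 than at 2 months, where 22.7% of all genes were. H2-Ab1 rose 2.80-fold (1.49 ± 0.378, adjusted p = 0.0355), H2-Eb1 2.77-fold (1.47 ± 0.385, adjusted p = 0.0384) and H2-DMb1 2.27-fold (1.18 ± 0.272, adjusted p = 0.00898). H2-Aa at 1.23 ± 0.381 (adjusted p = 0.0604) and H2-DMa at 0.94 ± 0.324 (0.0515) lay just outside the threshold, although their groups did not overlap. In all, 5 of 7 members were higher in every library at 5 months than in any at 2 months, against 28.2% of all genes. Cd74 was at 0.67 ± 0.309 (adjusted p = 0.152).

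For Ciita no difference between the times was seen under this label. Its level in libraries labelled PPARγ-KO was 4.30 ± 1.41 CPM at 2 months and 4.26 ± 1.46 at 5 months (SD, n = 3), a log2 fold change of -0.02 ± 0.287 (adjusted p = 0.958). That estimate carries no direction, because it turned positive without PPARγ-KO replicate 3 at 2 months and without replicate 2 or replicate 3 at 5 months. The calls of the chains were also held by few libraries. Without PPARγ-KO replicate 3 at 2 months, 6 of 7 members were called, and without any other library only H2-DMb1 was.

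Ratios within a library do not depend on scaling and show how the members moved against each other. H2-Ab1 over Ciita, as a ratio of CPM per kb, was 47.4 to 49.5 in the 2-month WT libraries and 125 to 147 in the 5-month ones. In those labelled PPARγ-KO it was 48.7 to 60.6 after 2 months and 155 to 181 after 5 months. The ranges of the 2 times were far apart in both genotypes, so the chain gained on its coactivator over time whatever the label. At 5 months the ratio was also higher in every PPARγ-KO library than in any WT library.

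The chain also gained on the invariant chain, although Cd74 itself rose in WT libraries. Cd74 over H2-Ab1 was 3.48 to 4.20 in the 2-month WT libraries and 2.18 to 2.23 in the 5-month ones. The corresponding ranges in libraries labelled PPARγ-KO were 3.81 to 4.14 and 2.01 to 2.41. The excess of the invariant chain over H2-Ab1 was thus smaller in all 6 libraries at 5 months than in any at 2 months, and the genotypes overlapped at each time. H2-Ab1 over the editor subunit H2-DMb1 was 6.18 to 7.76 in the 2-month and 8.67 to 9.34 in the 5-month WT libraries, without overlap. Under the PPARγ-KO label it was 7.84 to 8.56 and 9.0 to 10.9, also without overlap. At 2 months every PPARγ-KO library thus lay above every WT library in this ratio, by a narrow gap, and at 5 months the genotypes overlapped. H2-DMa over H2-DMb1 was 0.777 to 0.92 in the 2-month and 0.739 to 0.762 in the 5-month WT libraries, again without overlap. In libraries labelled PPARγ-KO this ratio was 0.841 to 0.993 after 2 months and 0.673 to 0.866 after 5 months, which overlapped. H2-Aa over H2-Ab1 was 0.957 at most and 0.762 at least in WT libraries at 5 months. The low value came from WT replicate 1 and lay within the 0.746 to 0.775 of the libraries labelled PPARγ-KO.

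**Figure D3:**
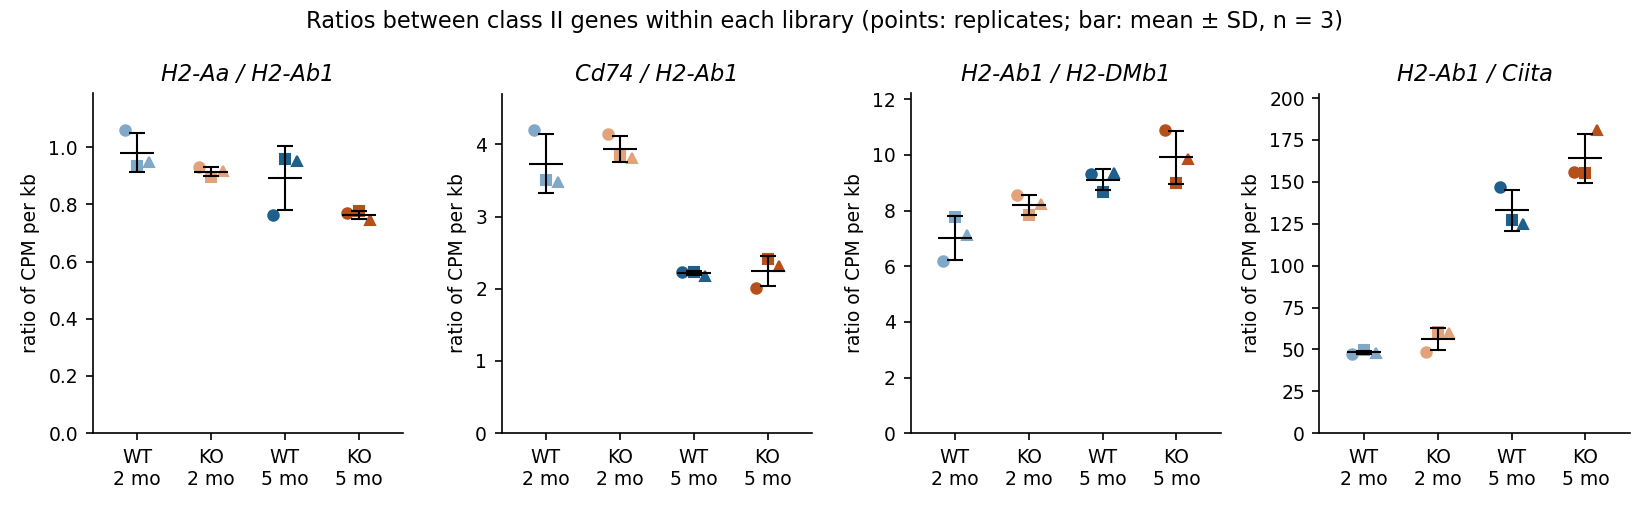
Ratios of CPM per kb between class II genes within each library (vertical axes, linear from 0), by genotype label and months of FFD. Symbols give the replicate number (circle 1, square 2, triangle 3) and bars the mean ± SD of 3 libraries. The 2 times separate for Cd74 over H2-Ab1 and for H2-Ab1 over Ciita, with means of 48.2 and 133 in WT libraries for the latter.

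Across libraries the 7 members moved closely together. With the 4 group means taken out, Pearson's r between the log2 levels of any 2 members lay between 0.932 and 0.991 over the 12 libraries, which describes the spread within groups. Without that step the range was 0.671 to 0.996, the lower values being those with Ciita. Libraries of a group thus differed in class II as a whole, and the 7 members are not 7 independent readings of it.

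Cd74 lies on chromosome 18 at 60803848 to 60812646 (mm10, plus strand) and overlaps the microRNA gene Mir5107, which had at most 3 counts in a library. Ciita lies on chromosome 16 at 10480059 to 10528418 (plus strand). Its exons share 329 bases with those of Dexi on the opposite strand, and Dexi was the more abundant gene, at 15.7 to 36.9 CPM. Whether counting used the strand is not stated, so reads from the shared stretch cannot be assigned with certainty. At 2 months Dexi was higher under the PPARγ-KO label (0.73 ± 0.146, adjusted p = 0.0293), opposite to Ciita, and was at 0.12 ± 0.0819 (adjusted p = 0.339) at 5 months. In WT libraries it rose from 2 to 5 months by 0.84 ± 0.107 (adjusted p = 0.000121). Its part in the values of Ciita was not tested.

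Around the members, most genes that prepare class II peptides were also lower at 5 months in libraries labelled PPARγ-KO. Of 11 tested genes for peptide and invariant chain processing, 7 fell and 0 rose, with a median log2 fold change of -0.38. This count and those of the lists that follow stand against 9.51% of all genes called lower at 5 months and 1.78% at 2 months. The cathepsin Ctsl, at 0.20 ± 0.075 (adjusted p = 0.0809), and the protease Sppl2a, at 0.14 ± 0.0602 (adjusted p = 0.125), lay above 0. The largest falls were those of Ifi30, a lysosomal thiol reductase (-1.10 ± 0.102, adjusted p = 2.66e-05), and Ctss, the cathepsin that trims the invariant chain, which went from 177 ± 25.7 to 87.8 ± 11.5 CPM (SD, n = 3, adjusted p = 0.000955). Ctsc fell from 137 ± 6.65 to 70.7 ± 1.55 CPM and Lgmn, asparagine endopeptidase, from 203 ± 14.1 to 117 ± 3.62 CPM. At 2 months 0 of the 11 were called, with a median of -0.09.

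Genes for class II turnover and costimulation were lower too. At 5 months 5 of 8 tested genes fell and 0 rose, with a median of -0.87. Cd40, the receptor for CD40 ligand, fell by 1.72 on the log2 scale (SE 0.343, adjusted p = 0.0038) from 2.16 to 0.642 CPM. The costimulator Cd86 was at -1.09 ± 0.153 (adjusted p = 0.000345), the ligand gene Cd274 at -1.09 ± 0.31 (0.047) and Cd83, which holds class II at the surface, at -0.98 ± 0.128 (0.000222). At 2 months 0 of 8 were called, with a median of -0.02. Of the T cell genes that meet class II, CD4 and the T cell receptor complex among them, 0 of 6 tested at 5 months and 0 of 3 at 2 months passed the test, with medians of -0.65 and 0.48.

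The other class II chains were scarce. H2-DMb2, the neighbor of H2-DMb1, fell at 5 months from 1.43 ± 0.488 to 0.561 ± 0.0544 CPM (-1.32 ± 0.37, adjusted p = 0.0253), and H2-Ob, a subunit of H2-DO, which restrains H2-DM, from 1.45 ± 0.137 to 0.599 ± 0.0268 (-1.25 ± 0.32, adjusted p = 0.0157). These were the 2 of the list with enough counts at that time, and at 2 months 0 of 2 were called. H2-Ea-ps, the locus of the I-E alpha chain that would pair with H2-Eb1, had 0 counts in all 12 libraries.

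The other regulators of class II genes moved in both directions. Of 9 tested at 5 months, Spi1, the myeloid factor PU.1, fell (-0.96 ± 0.145, adjusted p = 0.00104), Rfx5, which binds the X box, rose (0.43 ± 0.129, adjusted p = 0.0364), and the list's median was -0.13. Irf8, a factor of myeloid and B cells, was at -0.73 ± 0.233 (adjusted p = 0.0829), with every PPARγ-KO library below every WT library. That separation was seen in 19.0% of all genes tested. Whether these regulators differ from Ciita was not tested. At 2 months 0 of 9 were called. Of 11 tested genes of the interferon gamma axis, the receptor subunits Ifngr1 (-0.37 ± 0.0781, adjusted p = 0.00504) and Ifngr2 (-0.25 ± 0.0776, adjusted p = 0.0408) fell at 5 months, and all 11 were below 0 with a median of -0.37. At 2 months only Irf9 passed, and it rose (0.50 ± 0.101, adjusted p = 0.0268).

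MHC class I presentation, which shows peptides from inside the cell and is active in all liver cells, differed less. At 5 months 3 of 16 tested genes fell and 0 rose, with a median of -0.22. These were H2-M3 (-0.83 ± 0.19, adjusted p = 0.00843), H2-D1 (-0.30 ± 0.0875, adjusted p = 0.029) and H2-T23 (-0.26 ± 0.0835, adjusted p = 0.05, under the threshold before rounding). At 2 months 0 of 16 were called, and 15 of 16 were above 0 with a median of 0.20, whereas all 7 class II members were below 0. The difference between the classes was not tested.

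**Figure D4:**
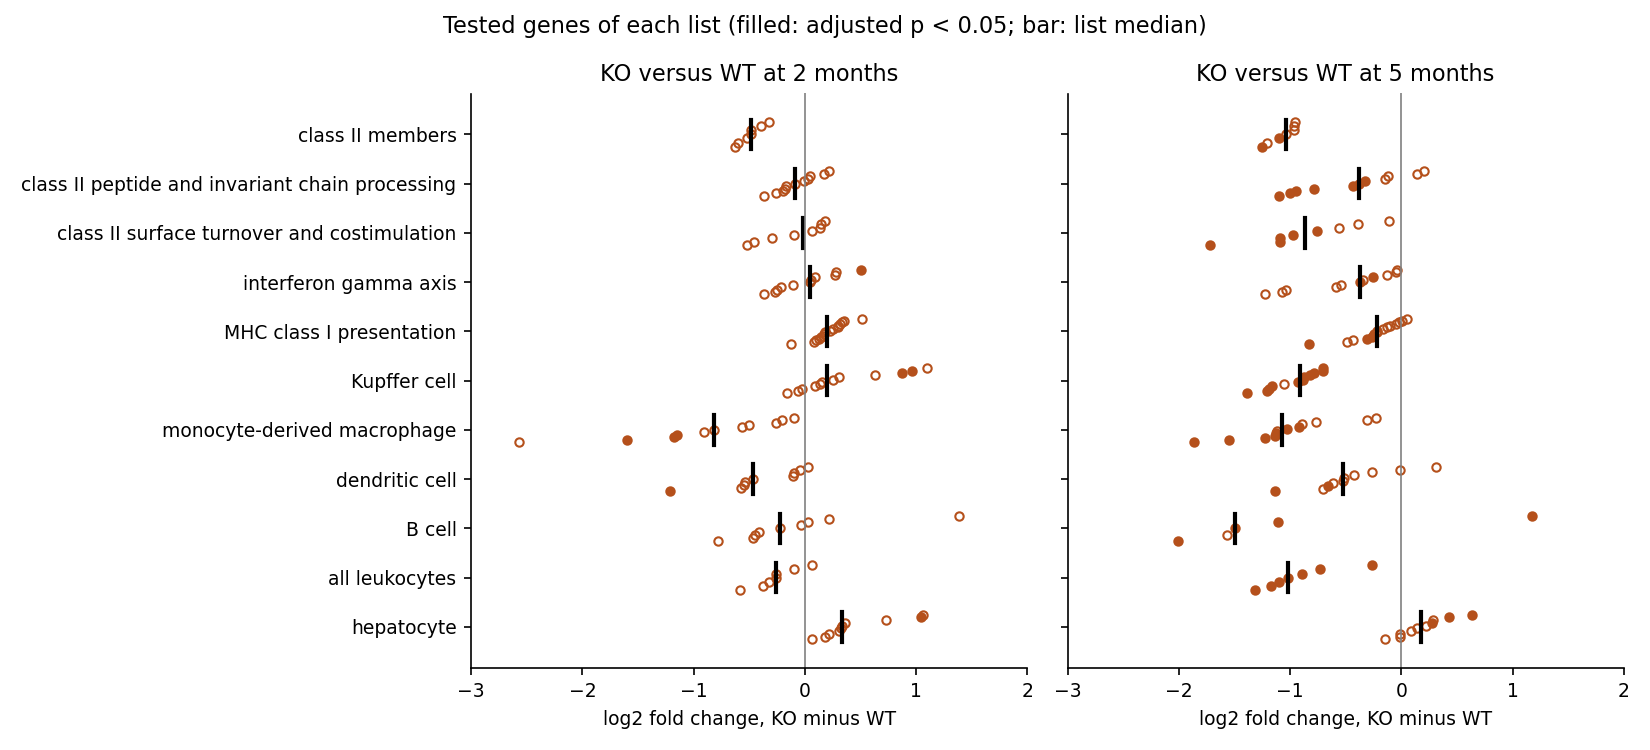
Log2 fold change, PPARγ-KO minus WT, of every tested gene of 11 gene lists (horizontal axis) at 2 and at 5 months. Filled points have an adjusted p under 0.05, bars mark list medians. The class II members have medians of -0.49 and -1.04, and the Kupffer cell list moves from 0.20 at 2 months to -0.91 at 5 months.

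Marker genes of leukocytes and macrophages moved with the members at 5 months, and most of those of hepatocytes the other way. In bulk tissue, fewer cells of a type and less RNA per cell cannot be told apart. All 7 genes of the leukocyte list fell, their median being -1.02 in libraries labelled PPARγ-KO, and Ptprc, which encodes CD45, was at -0.89 ± 0.143 (adjusted p = 0.00281). The list summed to 340 to 406 CPM in WT and 235 to 256 CPM in PPARγ-KO libraries. Of the Kupffer cell list 11 of 12 genes fell and 0 rose, with a median of -0.91, among them Timd4, Adgre1 and Cd5l, and Clec4f was at -0.79 ± 0.0924 (adjusted p = 0.00014). Its sum was 1520 to 1720 CPM in WT and 765 to 950 CPM in PPARγ-KO libraries. Of the monocyte-derived macrophage list 7 of 12 fell and 0 rose, all 12 lay below 0, and the median was -1.07, with Itgam, Chil3 and Fcgr1 lowest. The sum of that list was 443 to 624 CPM in WT and 229 to 331 in PPARγ-KO libraries. The hepatocyte list summed to 59900 to 65200 CPM in WT and 80400 to 91800 in PPARγ-KO libraries, and Alb, the gene of serum albumin, was higher under the PPARγ-KO label (0.64 ± 0.108, adjusted p = 0.00121). Alb made up most of that sum, with means of 36900 CPM in WT and 57100 in PPARγ-KO libraries. Of the 10 hepatocyte genes 3 were called higher and 0 lower, where 1258 of 14138 genes tested were called higher. In the fitted value 7 lay above 0 and 3 below, with a median of 0.18.

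The other cells that can carry class II gave a mixed picture. Of 10 tested dendritic cell genes Itgax and Batf3 fell, with a median of -0.52, and the sums were 29.1 to 42.5 and 28.3 to 30.6 CPM, which overlapped. Of 5 tested B cell genes Ms4a1, Cd22 and Cd79b fell and Ighm, the immunoglobulin mu heavy chain, rose from 17.0 ± 4.56 to 38.2 ± 4.47 CPM. With Ighm the B cell sum was higher in every PPARγ-KO library, at 38.9 to 49.2 against 21.1 to 33.5 CPM. The sinusoidal endothelium list, whose cells can also present antigen, had 4 of 10 genes lower and sums of 390 to 416 and 342 to 363 CPM. No marker of these 7 lists was at 0 in all libraries of a group. The part of all these lists in the class II differences was not tested.

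At 2 months the leukocyte, monocyte-derived macrophage and dendritic cell lists also had medians below 0, and the Kupffer cell list did not. Of the leukocyte list 0 of 7 genes were called, 6 lay below 0 and the median was -0.26. Coro1a, which encodes coronin 1A, was at -0.58 ± 0.155 (adjusted p = 0.0705) and Laptm5 at -0.38 ± 0.103 (adjusted p = 0.0789). Both had every PPARγ-KO library below every WT library, which was true of 12.0% of all genes tested at 2 months. Ptprc was at -0.10 ± 0.135 (adjusted p = 0.758). Of the monocyte-derived macrophage list all 11 tested genes lay below 0, the median was -0.81, and Ccr2, Cx3cr1 and Trem2 fell. The dendritic cell list had 8 of 9 genes below 0 and a median of -0.47, and Itgax fell from 8.52 ± 1.53 to 3.66 ± 0.827 CPM (-1.21 ± 0.213, adjusted p = 0.018). Of the Kupffer cell list Cd163 and Timd4 rose and 0 fell, with a median of 0.20. The hepatocyte list summed to 61100 to 71900 CPM in WT and 79000 to 91700 in PPARγ-KO libraries.

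PPARγ-KO replicate 3 at 2 months, in which the 7 members summed to 400 CPM against 209 and 228 in the other replicates, did not stand out in the leukocyte and dendritic cell lists. Its leukocyte list summed to 217 CPM against 213 and 204, and its dendritic cell list to 29.5 against 30.5 and 32.8. The Kupffer cell list, at 676 against 683 and 592, and the monocyte-derived macrophage list, at 112 against 134 and 105, lay between. Other lists were also highest in this library, among them T and NK cell (5.95 against 4.35 and 3.13), neutrophil (6.1 against 5.07 and 5.24) and class I presentation (5820 against 5160 and 5390). So were lists of cells other than leukocytes, such as hepatocyte (91700 against 79000 and 81600) and sinusoidal endothelium (554 against 492 and 514).

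**Figure D5:**
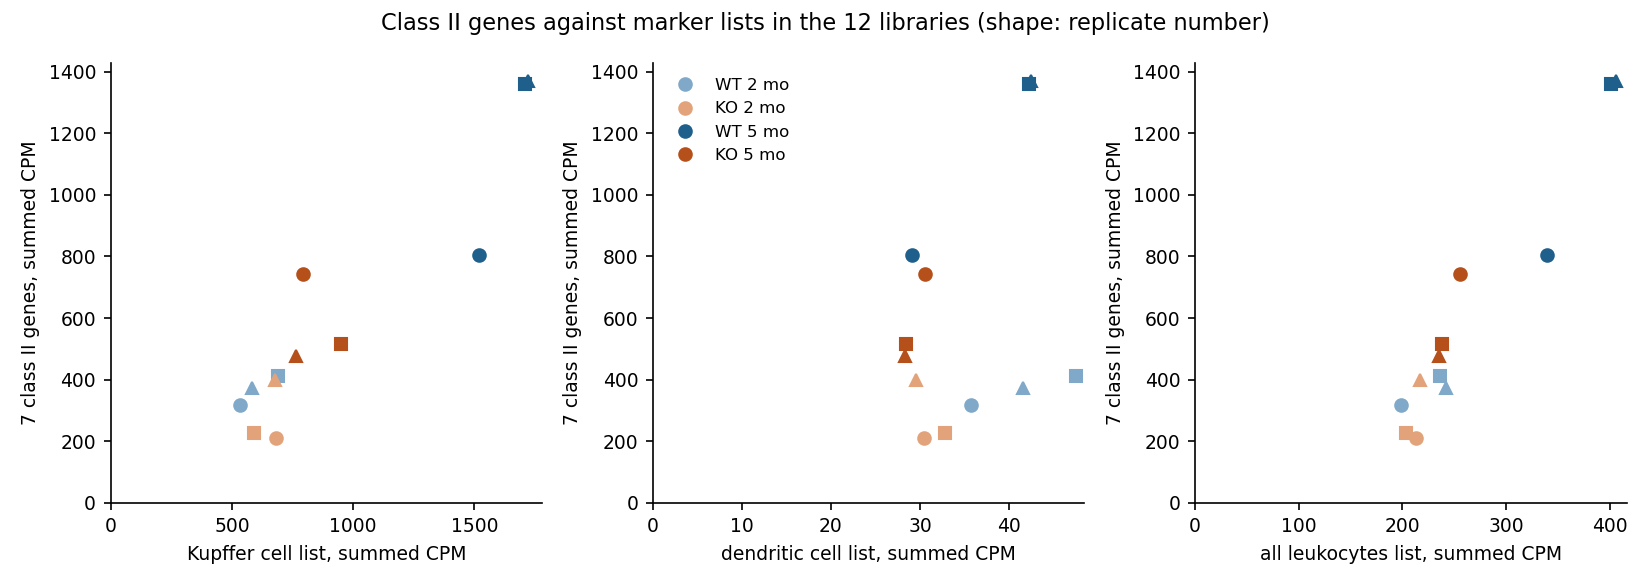
Summed CPM of the 7 class II genes (vertical axes) against summed CPM of the Kupffer cell, dendritic cell and leukocyte marker lists (horizontal axes) in the 12 libraries, colored by group and with the replicate number as shape (circle 1, square 2, triangle 3). The class II sum reaches 1360 and 1370 CPM in WT replicates 2 and 3 at 5 months, where the leukocyte list sums to 401 and 406 CPM.

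Set against the markers within each library, the class II difference at 5 months depended on the list. Per CPM of the leukocyte list it was 2.37 to 3.38 in WT libraries at 5 months and 2.03 to 2.90 in libraries labelled PPARγ-KO, which overlapped, and 1.54 to 1.75 in WT libraries at 2 months. Per CPM of the Kupffer cell list the ranges at 5 months overlapped too, at 0.53 to 0.794 and 0.542 to 0.934, with means of 0.706 in WT and 0.699 in PPARγ-KO libraries. Per CPM of the monocyte-derived macrophage list the mean was 2.08 in WT and 2.20 in PPARγ-KO libraries, with overlap. In both ratios PPARγ-KO replicate 1 was the highest library, at 0.934 and 3.24. Replicates 2 and 3 had 0.542 and 0.622 for the Kupffer cell list, and 1.56 and 1.80 for the monocyte-derived list. The likeness of the means thus rested on that library, and a difference relative to the macrophage lists was not tested. Per CPM of the sinusoidal endothelium list the ranges were 2.06 to 3.32 and 1.37 to 2.17, which overlapped. Per CPM of the dendritic cell list they did not overlap, at 27.7 to 32.1 and 16.8 to 24.3, nor per CPM of the B cell list, at 38.1 to 43.6 and 12.3 to 15.1. Most of the B cell sum in PPARγ-KO libraries at 5 months was Ighm, with a mean of 38.2 CPM in sums of 38.9 to 49.2. Ighm rose while Ms4a1, Cd22 and Cd79b fell, so the B cell ratio is largely a ratio to Ighm and does not describe the rest of that list. At 2 months the ratio to the Kupffer cell list was 0.597 to 0.641 in WT and 0.306 to 0.591 in PPARγ-KO libraries, without overlap but with a narrow gap. The B cell ratio did not overlap either, at 9.59 to 14.1 and 2.49 to 7.1. For the leukocyte list the ranges overlapped at 2 months, at 1.54 to 1.75 and 0.982 to 1.84. They also overlapped for the dendritic cell, monocyte-derived macrophage and sinusoidal endothelium lists.

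The difference between times in the genotype effect was called for 9 of 12 Kupffer cell genes, all in the direction of a lower level in PPARγ-KO libraries at 5 months, and for 1 of 7 leukocyte genes, whereas 0 of 7 class II members were called. Of all genes tested, 0.912% were called in that direction. Whether the lists differ from the members in this was not tested.

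Within groups, the list that followed class II most closely was the interferon gamma axis. With group means taken out, its summed log2 level had a Pearson's r of 0.921 with that of the members over the 12 libraries. It was 0.854 for the T and NK cell list and 0.849 for the neutrophil list. The peptide and invariant chain processing list had 0.736, the leukocyte list 0.722 and the Kupffer cell list 0.38, as a description. Lists of other cells were positive as well, with 0.655 for cholangiocytes and 0.626 for hepatocytes. The interferon gamma axis was the highest of all lists compared, and its part in the class II levels was not tested. PPARγ-KO replicate 3 at 2 months had a list sum of 377 CPM against 323 and 336 in its group, and PPARγ-KO replicate 1 at 5 months 388 against 313 and 327. Cxcl9, an interferon gamma-induced chemokine named after its values were seen, had 12.7, 15.6 and 32.1 CPM in PPARγ-KO libraries at 2 months and 40.4, 11.1 and 13.1 at 5 months. The libraries with most class II in each PPARγ-KO group were thus also those with most Cxcl9. In WT libraries at 2 months replicate 2 had most class II, while the interferon gamma list was highest in replicate 3, at 331 against 329 CPM. At 5 months WT replicate 3 was highest in both, but barely above replicate 2, at 1370 against 1360 CPM of class II and 460 against 449 of the list. Ifng itself was near the limit of detection, at 0.418 CPM or less.

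The genes whose pattern was most like that of the members over the 12 libraries were Ppt1, Fcer1g, Selplg, P2ry6 and Sat1, followed by Fxyd5, Snx5, Ms4a4c, Fcgr4 and Laptm5, which is also on the leukocyte list. Likeness was Pearson's r between log2(CPM + 1) and the mean of the members' standardized levels, among 13164 genes with a mean of at least 1 CPM, and ran from 0.978 for Ppt1 to 0.963 for Laptm5. The points share 4 groups and 12 libraries, and the order of these 10 is a description.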

How the data were processed

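The authors deposited raw read counts per gene for each of the 12 liver libraries, not normalized, with coordinates and lengths on mm10. The study's methods name STAR for alignment, whereas the submitters' processing notes name HISAT2. The counting program, the annotation version and the use of strand are not given in the sources used here. A spreadsheet had turned 27 gene names into day numbers, which were put back by gene identifier.

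Counts were scaled by TMM and filtered by filterByExpr. Genes were tested with edgeR's robust quasi-likelihood F-test (two-sided) with Benjamini-Hochberg adjustment over the genes of that fit, and a gene was called at an adjusted p under 0.05. Each pair of groups was fitted alone and the difference of differences on all 4 groups. DESeq2 and the settings in the closing section were alternatives (DESeq2 1.42.0 and edgeR 4.0.16 under R 4.3.3). The fits were tested on simulated data. The labels do not say that libraries came from separate mice, so p-values measure the spread between these libraries, which may be technical. None duplicated another.

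Same-numbered libraries at 2 months correlated at 0.218, 0.323 and 0.14 over the 5000 most abundant genes with group means taken out, which pairs them by the rule used (every pair over 0.1), and at -0.0806, -0.0586 and -0.172 at 5 months, which does not. At 2 months PPARγ-KO replicate 3 also had 0.113 with WT replicate 1, so the rule does not settle the pairing. The main fit at 2 months left it out, and the block was an alternative.

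Members and gene lists were chosen with earlier results of these data known. Genes were named by rule, being every member, up to 4 called genes per pathway list and time with the largest change, up to 3 tested genes per marker list and time with the largest change, defining markers, and the 10 genes most like the members. Cd79b, Ighm, Cx3cr1, Cxcl9, Dexi, Ctsl, Sppl2a and Irf8 were named after their values were seen.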

Additional observations from a re-analysis of the deposited data

How the results depend on the processing

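All 7 members stayed below WT in libraries labelled PPARγ-KO at 2 and at 5 months, and above their 2-month level in WT libraries at 5 months, under every alternative run. In libraries labelled PPARγ-KO over time 6 of 7 did so, while Ciita, at -0.02, went to 0.30 without replicate 3 at 2 months and to 0.06 and 0.16 without replicates 2 and 3 at 5 months, with a range of -0.33 to 0.30. Calls depended on the setting, and the cause was not tested.

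Members called at 2 months numbered 2 with an unadjusted p under 0.05 and 1.3-fold, 2 without a filter and 0 to 3 with a library left out. At 5 months they numbered 7 with the unadjusted rule, 7 with DESeq2, 4 with at least 10 counts in every library, 4 with all 12 libraries in a joint fit, 0 with the replicate block and 0 to 5 with a library left out. In PPARγ-KO libraries over time they numbered 5 with the unadjusted rule, with DESeq2 and with the joint fit, 1 with the block, and 1 to 6 with a library left out.

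Over all genes, 519 calls at 2 months became 1608 with the unadjusted rule, 988 with DESeq2, 1562 without a filter, 817 with the block, 1153 with the joint fit and 117 to 1577 with a library left out (1577 without WT replicate 1). At 5 months leaving out a library gave 1593 to 3078 calls. The 238 calls of the difference of differences became 1563, 565 and 793 with the unadjusted rule, DESeq2 and no filter, and 83 to 567 with a library left out. The block changed no other count by over 1.5 times.

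Scaling by library size alone lowered the median gene by up to 0.0801 on the log2 scale and the share of higher calls. It gave 171 higher and 349 lower calls in place of 259 and 260 at 2 months, 889 and 1894 in place of 1258 and 1344 at 5 months, 2745 and 3872 in place of 3442 and 3283 in WT libraries over time, and 2741 and 3725 in place of 3287 and 3215 in PPARγ-KO libraries over time. With 3 libraries a group, depth was not the limit for the chains, whose spread exceeded counting error, whereas H2-DMb2, H2-Ob and Ifng were counted too thinly for firm statements.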

Other observations

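The gene groups around class II also differed between the times. In WT libraries 11 of 11 genes for peptide and invariant chain processing were called higher at 5 than at 2 months (median log2 fold change 0.81), and in libraries labelled PPARγ-KO 9 of 11 were (0.48). Of the class I presentation genes 14 of 16 were called higher and 1 lower in WT libraries (median 0.67), and 5 higher and 1 lower in PPARγ-KO libraries (0.255). For class II turnover and costimulation 4 of 8 were called higher in WT libraries, and in PPARγ-KO libraries 0 were higher and 1 lower. These counts are read against 23.8% and 22.7% of all genes called higher, with medians of -0.0128 and -0.0111. In the test of the difference between the genotypes over time, 2 of 11 processing genes, 1 of 16 class I genes and 1 of 8 turnover genes were called, all lower in PPARγ-KO libraries at 5 months. In that test 0.912% of all genes were called in the same direction. As for the members, time, age and batch cannot be told apart.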
